A study of Mus musculus with 28 samples.

Results

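The comparison described here is the change that Pou4f3 made when it was added to Gfi1 and Atoh1. It was taken as the effect of doxycycline (Dox) in iGPA cells minus the effect of Dox in iG+A cells, on the deposited log2 values, and it uses 8 of the 28 libraries of the series. Both lines are Dox-inducible mouse embryonic stem cells of the A2loxCre parental line, which differentiated for 6 days as embryoid bodies (EBs), free-floating aggregates that hold many cell types. The iG+A line carries Gfi1 and Atoh1 in one inducible cassette, and the iGPA line carries Gfi1, Pou4f3 and Atoh1, each with the fluorescent reporter mVenus at the end of the cassette. Atoh1 bears a FLAG tag in both lines and Pou4f3 a MYC tag in iGPA. Dox at 2 µg/ml was present for the last 48 h in the Dox groups, and from these the mVenus+ cells were sorted, while the groups without Dox are whole, unsorted EBs of the same day. The 4 groups (iG+A No Dox, iG+A Dox, iGPA No Dox, iGPA Dox) have 2 replicates each, which the series describes as different clones of a line. Within a line, Dox treatment and cell sorting go together and cannot be told apart. Both Dox groups were sorted in the same way, so a direct comparison of iGPA Dox with iG+A Dox, and one of the untreated lines, are given beside the main comparison.

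Pou4f3 is a POU-homeodomain transcription factor of inner ear hair cells (HCs), where it is required for their maturation and survival. Atoh1 is the basic helix-loop-helix factor that specifies HCs as well as Merkel cells, gut secretory cells and several groups of neurons, and Gfi1 is a zinc-finger factor, known mostly as a repressor, that HCs also need. HCs detect sound and head movement through a bundle of actin-filled stereocilia and signal to sensory neurons through specialised ribbon synapses, so genes of the bundle, of the synapse and of neurons are described separately.

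Estimated depth was 30.3 to 35.3 M reads in the iG+A libraries and 36.4 to 45.2 M reads in the iGPA libraries. All values below are normalised counts or differences of log2(normalised count + 1), so that the added 1 bears on the values of genes with few counts. In all, 16837 genes with at least 10 normalised counts in at least 2 libraries were tested with limma, and a call means a Benjamini-Hochberg adjusted p under 0.05 together with a log2 difference of at least 1.5 in size. SE is the standard error of the fit, and each group has n = 2. In these bulk samples fewer cells of a type and less RNA per cell cannot be told apart.

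The transgenes were expressed as the line names state. Pou4f3 had 13037 and 15115 normalised counts in the iGPA Dox replicates, 48.9 and 72.6 in iGPA without Dox, a mean of 46.2 (SD 5.39) in iG+A Dox, and 8.13 and 2.25 in iG+A without Dox. It was thus present at a low level in untreated iGPA cells, above untreated iG+A (log2 difference 3.48), and it also rose in iG+A cells with Dox (3.11), which carry no Pou4f3 transgene. Reads of the transgene and of the gene's own locus were not told apart. Gfi1 had 9936 and 10353 normalised counts in iG+A Dox and 8119 and 9464 in iGPA Dox. Atoh1 had 14276 and 16667 in iG+A Dox and 16728 and 19107 in iGPA Dox. The Dox effects on these 2 factors were close in both lines, with differences of 0.43 (SE 0.35, limma adjusted p = 0.548) for Gfi1 and 0.37 (SE 0.47, adjusted p = 0.727) for Atoh1.

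With Pou4f3 added, 270 genes were higher and 101 were lower, which is 1.60% and 0.600% of the 16837 genes tested and 2.20% together. The median difference over all genes tested was -0.012. The Dox effects of each line alone were called higher for 8.65% and lower for 5.31% of genes in iGPA cells, and for 7.35% and 4.95% in iG+A cells. Of the 270 genes, 149 rose with Dox in iGPA cells and were not called in iG+A cells, 56 rose in both lines, 29 fell in iG+A cells alone, 3 rose in iGPA and fell in iG+A, 2 fell in both, and 31 were called in neither line. Their median Dox effect was 3.00 in iGPA cells and 0.04 in iG+A cells. The 101 lower genes divided more evenly, since 36 fell in iGPA cells alone, 30 rose in iG+A cells alone, 11 rose in both lines, 3 fell in both and 21 were called in neither. Their median Dox effect was -1.08 in iGPA cells and 0.87 in iG+A cells. The higher genes were therefore for the most part not called higher in iG+A cells, while 41 of the lower genes rose in iG+A cells. The genes were chosen on the difference of these same Dox effects, which favours such a split. The count of lower genes was 63 without the first replicate of untreated iGPA and 65 without the first replicate of untreated iG+A.

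**Figure D1:**
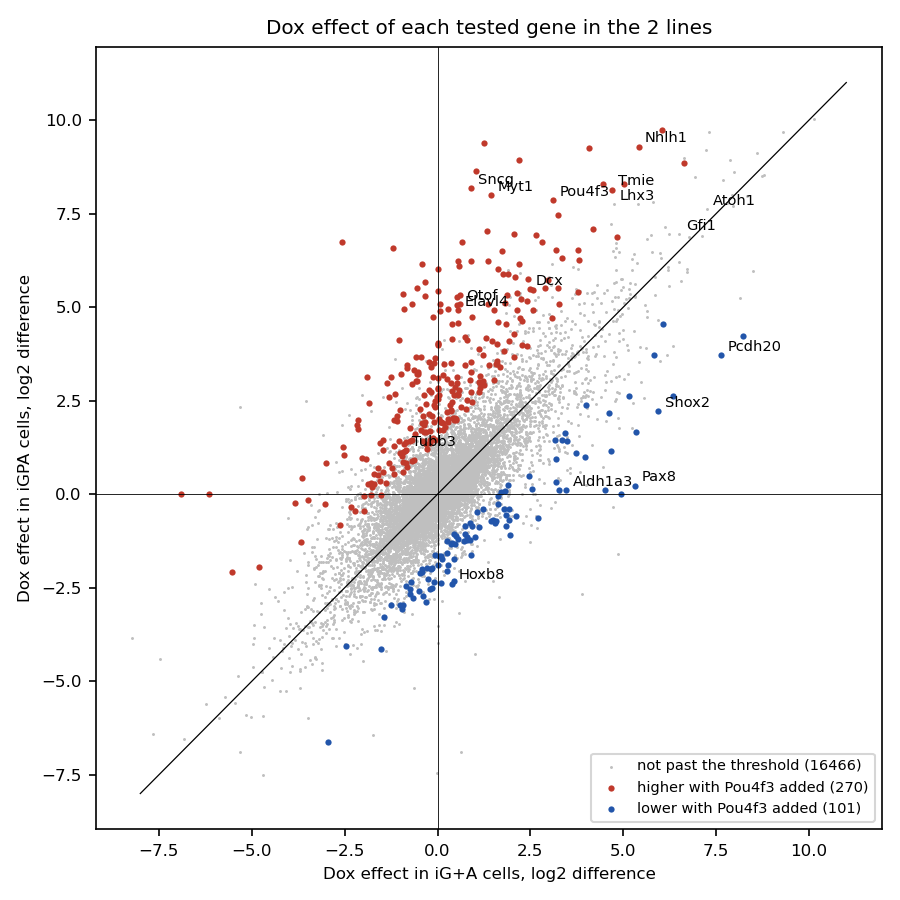
Dox effect in iG+A cells (x axis, log2 difference of Dox against No Dox) and in iGPA cells (y axis) for the 16837 genes tested, 1 point per gene, with the line of equal effects drawn in black. The 270 genes higher with Pou4f3 added (red) lie above the line, many of them near 0 on the x axis, and the 101 lower genes (blue) lie below it; Gfi1 and Atoh1 lie close to the line.

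Among genes with at least 100 normalised counts in a group, the largest differences were seen for genes that were low in the other 3 groups. Sncg, which encodes the synuclein gamma of sensory neurons (chr14:35183460-35187975, minus strand, NCBIM37), had 9112 and 9003 normalised counts in iGPA Dox, 37.6 and 24.6 in untreated iGPA, 44.7 and 74.4 in iG+A Dox and 30.2 and 30.3 in untreated iG+A. The iGPA Dox replicates stood far above the other 6 libraries, and the difference was 7.26 (SE 0.52, limma adjusted p = 2.07e-07). Myt1, a zinc-finger factor of neural and HC differentiation (chr2:181498037-181562502, plus strand), had 2970 and 2807 normalised counts in iGPA Dox, against 21.7 and 15.6 in iG+A Dox and 5.21 to 12.2 in the untreated libraries. Its difference was 6.55 (SE 0.61, adjusted p = 5.77e-06). Gh, which encodes growth hormone (chr11:106161585-106163179, minus strand), had 880.6 and 1003 normalised counts in iGPA Dox and at most 3.19 elsewhere among these libraries (difference 7.61, SE 0.84, adjusted p = 2.41e-05). Since both untreated iG+A libraries list Gh at 0, the size of this value depends on the added 1.

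Other genes of this group encode signalling and structural proteins. Mmp24, a membrane-bound metalloproteinase (chr2:155601078-155644102, plus strand), had 849.1 and 858.1 normalised counts in iGPA Dox and 6.39 to 16.2 in the other 6 libraries (difference 6.57, SE 0.67). Garem2, an adaptor of growth factor signalling, had 1130 and 992.2 in iGPA Dox and 12.8 to 32.5 elsewhere (6.29, SE 0.45, limma adjusted p = 2.07e-07). Bfsp1, an intermediate filament protein best known in the lens, had 842.9 and 1250 in iGPA Dox and 4.91 to 18.3 elsewhere (6.06, SE 0.67). In each of these the iGPA Dox libraries did not overlap with any other group. The same held for Ppp2r2c, a regulatory subunit of protein phosphatase 2A, with 1461 and 1335 normalised counts in iGPA Dox and 14.7 to 48.8 elsewhere (6.01, SE 0.72). Grm2, a metabotropic glutamate receptor, had 253.0 and 280.2 in iGPA Dox and 2.59 to 12.6 elsewhere (6.01, SE 1.06). Defa5, a defensin, had 131.3 and 127.0 in iGPA Dox and at most 5.31 elsewhere (5.69, SE 0.82, limma adjusted p = 0.0667 with only the compared groups in the fit), but defensin genes are near copies of each other and their counts are uncertain. The largest fitted value belonged to Rprl1, an RNase P RNA-like gene, with 84.4 and 2240 normalised counts in iGPA Dox, 0 and 15.7 in untreated iGPA, 0 and 0 in iG+A Dox and 33.6 and 0 in untreated iG+A. Its replicates lay far apart, its difference of 9.30 had an SE of 1.97, and the call was lost without the first replicate of untreated iG+A, the first of untreated iGPA or the second of iGPA Dox (limma adjusted p up to 0.0672).

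**Figure D2:**
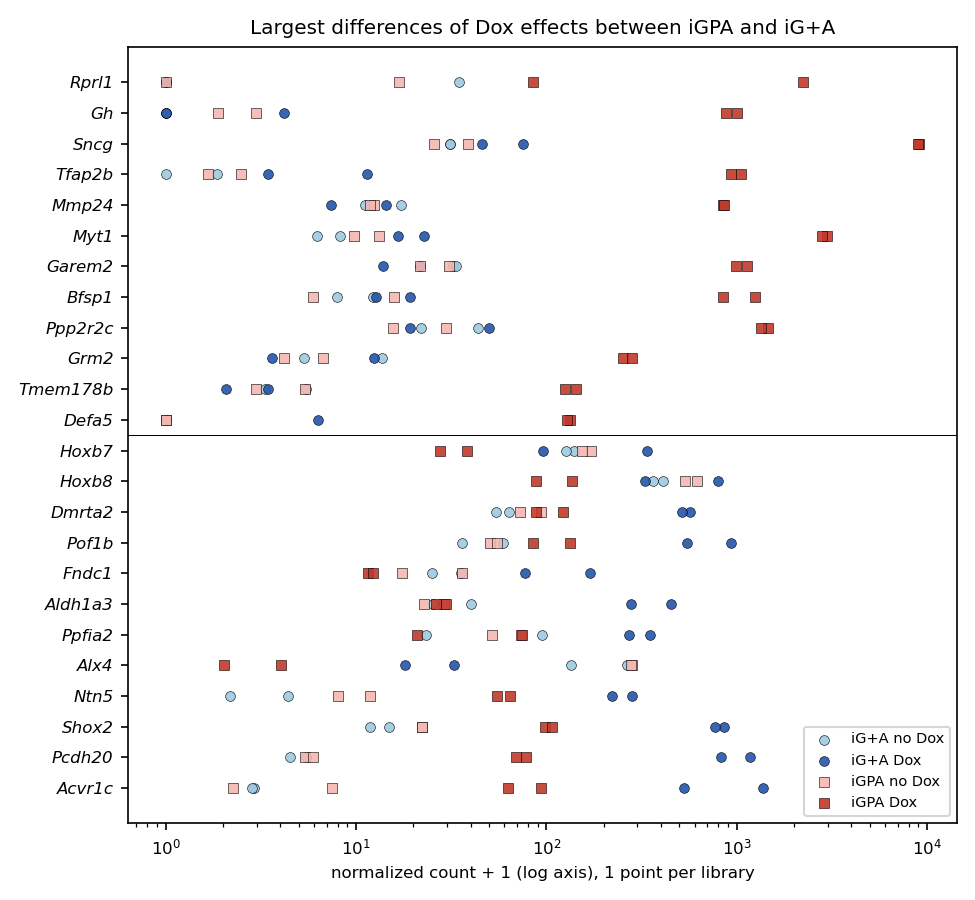
Normalised count + 1 (log axis) in each of the 8 libraries for the 12 largest rises and the 12 largest falls with Pou4f3 added. These are among genes that passed the filters, such as a mean of at least 100 normalised counts in a group, ordered by the log2 difference. Circles are iG+A, squares iGPA, pale symbols No Dox and dark symbols Dox. For the upper 12 genes the iGPA Dox replicates stand apart to the right, with Rprl1 the only gene whose replicates spread widely, and for the lower 12 they lie to the left of the iG+A Dox replicates.

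The sequences before the starts of 2 of these 12 genes are shown because they hold ATTAAT, a core of sites known to bind POU4 factors that reads the same on both strands. Tfap2b, an AP-2 transcription factor of neural crest and sensory lineages, had 930.7 and 1051 normalised counts in iGPA Dox, 2.43 and 10.4 in iG+A Dox and at most 1.49 without Dox (difference 6.73, SE 0.99, limma adjusted p = 0.000428). Tmem178b, which encodes a transmembrane protein, had 142.4 and 124.2 in iGPA Dox and 1.06 to 4.48 elsewhere (5.75, SE 0.66). For each gene the 250 bases before a start annotated by RefSeq are printed 5′ to 3′ on the plus strand of GRCm38.p6, with the motifs in capitals.
Tfap2b, chr1:19211804-19212053: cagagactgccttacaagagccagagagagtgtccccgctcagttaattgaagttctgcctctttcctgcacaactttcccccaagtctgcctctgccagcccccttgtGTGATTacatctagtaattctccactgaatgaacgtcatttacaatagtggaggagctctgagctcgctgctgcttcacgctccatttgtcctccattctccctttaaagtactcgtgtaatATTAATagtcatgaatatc
Tmem178b, chr6:39871186-39871435: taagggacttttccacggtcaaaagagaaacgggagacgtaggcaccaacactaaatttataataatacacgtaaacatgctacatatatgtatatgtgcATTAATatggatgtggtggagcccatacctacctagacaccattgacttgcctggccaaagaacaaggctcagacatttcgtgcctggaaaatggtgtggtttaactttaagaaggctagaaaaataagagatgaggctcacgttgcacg
Both hold ATTAAT, and the Tfap2b sequence also holds 1 copy of AATCAC, the core of sites known for Gfi1, as GTGATT on the other strand. The neuronal gene Dcx, described below, holds ATTAAT within the 26 bases of chrX:143933241-143933266 (minus strand).
Dcx: aaagcatgtaATTAATcataggaggt
Promoters of 300 bases (250 before and 50 after the start) were at hand for 201 of the 270 higher genes, some of them with more than 1 start. ATTAAT was present in 17 of the 273 promoters of higher genes (6.23%), in 2 of the 90 promoters of lower genes (2.22%) and in 420 of the 16562 promoters of all genes tested (2.54%). CAGCTG, an E-box of the kind bound by Atoh1 that also reads the same on both strands, was present in 17.95% of promoters of higher genes, 22.22% of lower genes and 16.48% of all. AATCAC on either strand was present in 11.36%, 7.78% and 8.71%. None of these motifs shares a base with another in the printed stretches. These shares are descriptions of letters in a window and were not tested.

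Genes of the hair bundle were higher with Pou4f3 added in 9 of 41 tested cases and lower in none, against 1.60% higher and 0.600% lower over all genes tested, with a median difference of 0.71 against -0.012 over all genes. They include genes of the stereocilia and, from the mechanotransduction complex, Tmie and Tmc2. Also listed but not called were Tmc1 (0.87, limma adjusted p = 0.517), Lhfpl5 (-0.04, adjusted p = 0.985), Cib2 (0.75, adjusted p = 0.111) and Pcdh15 (1.26, adjusted p = 0.182). Tmie, a subunit of the mechanotransduction channel complex (chr9:110768215-110782617, minus strand), had 974.7 and 1086 normalised counts in iGPA Dox, 154.3 and 104.9 in iG+A Dox and 1.97 to 4.64 without Dox. It rose in both lines, by more in iGPA cells (difference 3.45, SE 0.62, limma adjusted p = 0.0027). Tmc2, a pore-forming subunit of the same complex, had 113.7 and 137.3 in iGPA Dox, against 18.1 and 24.4 in iG+A Dox and 10.5 to 31.3 without Dox (3.27, SE 0.57, adjusted p = 0.00177), a call lost with only the compared groups in the fit (adjusted p = 0.0507). Unlike Tmie, Tmc2 was not called in iG+A cells.

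The other called members include motor proteins and scaffolds of the bundle, among which Myo15, Stard10, Eps8l2 and Ush1c were named after their values were seen. Not all such proteins are among them, since the myosin Myo3a (0.32, limma adjusted p = 0.621) and the scaffold Whrn (0.21, adjusted p = 0.792) were not called. Myo3b, a myosin of stereocilia tips, had 256.9 and 240.8 normalised counts in iGPA Dox and 20.2 to 47.2 elsewhere (3.62, SE 0.50, limma adjusted p = 0.000235). Myo15, the myosin that carries the elongation complex to the tips, had 1296 and 1454 in iGPA Dox, 158.7 and 238.5 in iG+A Dox and 445.2 to 669.3 without Dox, so the iG+A Dox libraries were below the untreated ones and the iGPA Dox libraries above them (2.92, SE 0.39, adjusted p = 0.000183). Stard10, a lipid-transfer protein, had 4383 and 4109 in iGPA Dox and 461.9 to 865.4 elsewhere (2.72, SE 0.23, adjusted p = 1.78e-06). Eps8l2, an actin-capping protein of stereocilia, and Ush1c, the scaffold harmonin, differed by 2.83 (SE 0.46) and 2.63 (SE 0.42). Ush1g, the scaffold Sans, had 111.5 and 113.0 in iGPA Dox and at most 4.25 elsewhere (4.10, SE 0.97, adjusted p = 0.0195), but this call was lost without any 1 of 6 of the 8 libraries (adjusted p up to 0.0824) and with 0.5 in place of the added 1 (3.79, adjusted p = 0.109). Grxcr2, a stereocilia protein, had 32.8 and 60.6 in iGPA Dox and is listed at 0 in both iG+A Dox libraries, so its difference of 6.05 (SE 0.85) depends on the added 1. Between 8 and 11 bundle genes were higher when each library was left out in turn.

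Of 6 HC markers that the study used, 1 was higher and none lower, where 1.60% and 0.600% of all genes were called. Otof, which encodes the otoferlin of HC vesicle release (chr5:30669351-30764305, minus strand), had 293.0 and 240.3 normalised counts in iGPA Dox, 17.0 and 9.76 in iG+A Dox, and 5.80 to 11.2 without Dox. The iGPA Dox libraries stood above the other 6, and the difference was 4.46 (SE 0.68, limma adjusted p = 0.000586). Lhx3, a LIM-homeodomain factor of HCs, had 337.3 and 497.3 in iGPA Dox and 76.0 and 143.1 in iG+A Dox, with 0.501 to 4.81 without Dox (3.01, SE 1.09, adjusted p = 0.139). Myo6, a myosin of the bundle base, had 9698 and 9360 in iGPA Dox and 5764 and 3970 in iG+A Dox (1.27, SE 0.28, adjusted p = 0.011), which is short of the size threshold. Myo7a, the other HC myosin used as a marker, went the opposite way, with 2810 and 3785 in iGPA Dox and 5459 and 5504 in iG+A Dox (-0.88, SE 0.18, adjusted p = 0.00669), again short of the size threshold. Espn, an actin-bundling protein, had 2033 and 1951 in iGPA Dox and 1816 and 2067 in iG+A Dox (0.38, SE 0.50, adjusted p = 0.739). Cdh23, a cadherin of the tip link, was high and variable in all 8 libraries, from 10367 to 68416 (1.08, SE 0.82, adjusted p = 0.515).

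Of 24 genes of HC synapses and channels, 3 were higher and 1 was lower (median 0.67), where 1.60% and 0.600% of all genes were called. Besides Otof, the higher genes encode calcium sensors. Cabp2 had 246.3 and 333.5 normalised counts in iGPA Dox, 5.89 and 8.11 in iG+A Dox and at most 2.57 without Dox (4.90, SE 1.07, limma adjusted p = 0.0112), a call lost without the first replicate of untreated iG+A, the first of untreated iGPA or the second of iGPA Dox (adjusted p up to 0.0736). Cabp1 had 3257 and 2520 in iGPA Dox, 454.3 and 599.1 in iG+A Dox and 152.3 to 250.8 without Dox (2.75, SE 0.42, adjusted p = 0.00057). The lower gene was Kcnmb2, a subunit of BK potassium channels, with 13.7 and 14.5 in iGPA Dox and 49.4 and 54.1 in iG+A Dox (-2.53, SE 0.55, adjusted p = 0.0107), a call lost without the first replicate of untreated iGPA.

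Of 28 transcription factors of HCs, 3 were higher (median 0.38, with 1.60% of all genes higher), namely Myt1, given above, Eya4 and Barhl1. Eya4, a transcriptional coactivator whose loss causes deafness (chr10:22823974-23069701, minus strand), had 737.9 and 746.5 normalised counts in iGPA Dox, 76.8 and 73.1 in iG+A Dox and 30.5 to 92.9 without Dox (4.02, SE 0.60, limma adjusted p = 0.000514). Barhl1, a homeobox gene of HCs and of Atoh1-dependent neurons, had 953.3 and 1207 in iGPA Dox and 163.5 and 131.8 in iG+A Dox (2.73, SE 0.67, adjusted p = 0.0251), a call lost without any 1 of 6 of the 8 libraries (adjusted p up to 0.135). Of 6 tested genes listed as Pou4f3 targets, none was higher and 1 was lower, with a median of -0.01. The lower one was Ntf3, a neurotrophin, with 69.3 and 63.1 in iGPA Dox and 121.1 and 164.3 in iG+A Dox (-1.81, SE 0.40, adjusted p = 0.0122), a call lost without the second replicate of iG+A Dox or the first of untreated iGPA.

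The called general neuronal genes were all higher, as were those of the bundle, but most members of both lists were not called. Of 32 general neuronal genes, 8 were higher and none lower, with a median of 1.11, against 1.60% higher over all genes. The count was 4 to 7 when each library was left out in turn (4 without either iGPA Dox replicate, and 5 without the first replicate of untreated iG+A, the first of iG+A Dox or the second of untreated iGPA) and 4 with only the compared groups in the fit. Elavl4, a neuronal RNA-binding protein (chr4:109876327-110024514, minus strand), had 2080 and 1819 normalised counts in iGPA Dox, 135.8 and 92.7 in iG+A Dox and 59.2 to 97.7 without Dox, and the iGPA Dox libraries stood apart from all others (4.38, SE 0.45, limma adjusted p = 1.21e-05). The neurofilament gene Nefl had 876.9 and 1048 in iGPA Dox and 21.6 to 91.5 elsewhere (4.72, SE 0.72, adjusted p = 0.000584). Nefm, the neighbouring neurofilament gene, had 392.7 and 445.9 in iGPA Dox and 4.25 to 15.7 elsewhere (5.62, SE 1.10, adjusted p = 0.00504). The annotated span of Nefm covers Nefl on the other strand, and the authors ran Kallisto with its default settings, which do not use strand, so reads of the 2 genes cannot be told apart where they overlap. Dpysl5, a protein of growing axons, was higher by 2.06, as were Nsg2 and Celf4, named after their values were seen, by 2.02 and 1.60, and the call of Dpysl5 was lost without any 1 of 5 of the 8 libraries.

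The study's neuronal markers were higher in 2 of 3 cases, with 1.60% of all genes higher. Dcx, the microtubule-binding protein doublecortin, had 322.7 and 305.9 normalised counts in iGPA Dox, 54.3 and 24.4 in iG+A Dox and 5.24 to 6.88 without Dox (3.01, SE 0.63, limma adjusted p = 0.00794), a call lost with only the compared groups in the fit (adjusted p = 0.0684). Tubb3, the neuronal tubulin, had 278.4 and 222.0 in iGPA Dox, 37.2 and 91.5 in iG+A Dox and 91.4 to 132.8 without Dox (2.03, SE 0.51, adjusted p = 0.0279), a call lost without any 1 of 6 of the 8 libraries (adjusted p up to 0.117). Barhl2, a homeobox gene of spinal neurons, was near the limit of detection, with 21.5 and 5.05 in iGPA Dox and 0 and 12.2 in iG+A Dox (1.31, SE 1.53, adjusted p = 0.698).

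Of 28 synaptic vesicle genes, 4 were higher (median 0.42, with 1.60% of all genes higher), and 1 to 4 were so when each library was left out in turn (1 without the second replicate of untreated iGPA) and 2 with only the compared groups in the fit. Syp, the vesicle protein synaptophysin, had 1401 and 1342 normalised counts in iGPA Dox, 288.3 and 294.1 in iG+A Dox and 44.2 to 71.7 without Dox (2.36, SE 0.51, limma adjusted p = 0.0102), a call lost without the second replicate of untreated iGPA. It was induced in both lines, as were Slc17a7, a vesicular glutamate transporter, with 873.8 and 681.9 against 166.5 and 359.7 in iG+A Dox (2.60, SE 0.53, adjusted p = 0.0701 with only the compared groups in the fit), and the synaptotagmin Syt13, with 5372 and 4779 against 1763 and 1714 (1.61, SE 0.24). Syt13 fell below the size threshold without the second replicate of untreated iG+A or of untreated iGPA (lowest value 1.42). Cplx1, complexin, differed by 2.65 (SE 0.65), a call lost without any 1 of 5 of the 8 libraries. Of 9 proneural factors tested, 1 was higher and none lower (median 1.19, with 1.60% of all genes higher). The higher one was Nhlh1, a basic helix-loop-helix factor of newly formed neurons. It had 3430 and 3214 in iGPA Dox, 414.7 and 396.6 in iG+A Dox and 2.95 to 9.28 without Dox (3.88, SE 0.73, adjusted p = 0.00357). The uncalled members ranged from -1.96 for Neurog2 (adjusted p = 0.448) to 2.68 for Neurog1 (adjusted p = 0.087).

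Of 38 sensory neuron genes, 3 were higher and 2 were lower (median 0.51), beside 1.60% and 0.600% of all genes. Leaving out each library in turn gave 1 to 3 in each direction, with 1 higher without the first replicate of untreated iG+A, of untreated iGPA or of iGPA Dox and 1 lower without the first replicate of untreated iG+A. Beside Sncg, these were receptors of neurotrophic factors. Ntrk2, the receptor of BDNF, had 277.1 and 208.2 normalised counts in iGPA Dox against 48.8 and 32.4 in iG+A Dox, while the untreated libraries ranged from 65.5 to 339.4 (3.59, SE 0.83, limma adjusted p = 0.0172). This call was lost without any 1 of 4 of the 8 libraries, and that of Gfra3, a co-receptor of the GDNF family (2.06, SE 0.57, adjusted p = 0.0496), without any 1 of 7. Ret, the signalling receptor of that family, was lower, with 163.9 and 199.9 in iGPA Dox, 555.5 and 738.2 in iG+A Dox and 247.1 to 450.9 without Dox (-2.16, SE 0.44, adjusted p = 0.00721), a call lost without the first replicate of untreated iG+A. The other lower gene was Shox2, given with the largest falls.

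Among genes with a mean of at least 100 normalised counts in a group, the 12 largest falls included genes that iG+A cells induced and iGPA cells induced less. Shox2, a homeobox gene of limb, heart and touch neurons (chr3:66775649-66785693, minus strand), had 96.8 and 106.1 normalised counts in iGPA Dox, 858.5 and 769.6 in iG+A Dox, 21.1 and 21.3 in untreated iGPA and 10.8 and 13.9 in untreated iG+A. It rose in both lines, by 2.21 in iGPA and 5.94 in iG+A cells (difference -3.74, SE 0.50, limma adjusted p = 0.000174). Pcdh20, a protocadherin outside the gene clusters (chr14:88864554-88871203, minus strand), had 76.7 and 68.6 in iGPA Dox and 1169 and 824.8 in iG+A Dox, with 3.48 to 4.91 without Dox (-3.92, SE 0.55, adjusted p = 0.000259). Aldh1a3, an enzyme of retinoic acid synthesis (chr7:73535778-73572403, minus strand), had 28.7 and 25.2 in iGPA Dox and 277.7 and 450.2 in iG+A Dox, with 21.6 to 39.2 without Dox, so the iGPA Dox libraries lay within the range of the untreated ones (-3.35, SE 0.54, adjusted p = 0.000955). Dmrta2, a transcription factor of forebrain patterning, had 120.7 and 86.8 in iGPA Dox and 565.7 and 513.7 in iG+A Dox (-2.87, SE 0.36, adjusted p = 9.34e-05). Pof1b, an actin-binding epithelial protein, had 84.0 and 131.2 against 936.5 and 544.2 (-2.95, SE 0.53, adjusted p = 0.00267).

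Hoxb8 and Hoxb7, neighbouring homeobox genes of the trunk axis, instead fell in iGPA cells and were not called in iG+A cells. Hoxb8 (chr11:96143219-96146639, plus strand) had 86.8 and 136.0 normalised counts in iGPA Dox, 327.2 and 795.3 in iG+A Dox, 533.5 and 618.5 in untreated iGPA and 408.3 and 363.2 in untreated iG+A (-2.80, SE 0.42, limma adjusted p = 0.000559). Hoxb7 had 26.6 and 37.3 in iGPA Dox and 94.6 and 338.0 in iG+A Dox (-2.76, SE 0.57, adjusted p = 0.00731). Both calls were lost with only the compared groups in the fit (adjusted p = 0.0646 and 0.15). Their annotated spans overlap on one strand, so reads of one may be counted for the other. Alx4, a homeobox gene of mesenchyme, fell in both lines, to 1.02 and 3.03 in iGPA and 17.0 and 31.7 in iG+A cells (-3.65, SE 0.94). The remaining ones of these 12 were Acvr1c (-3.99), a receptor of the TGF-beta family, Ntn5 (-3.72), a netrin, Ppfia2 (-3.36), a liprin, and Fndc1 (-3.02). Each of these 4 lost its call without any 1 of 6 of the 8 libraries, and Alx4 without any 1 of 5 (adjusted p up to 0.21).

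Among 19 genes of the otic placode and sensory progenitors, none was higher and 2 were lower, with a median of -0.68 and 0.600% of all genes lower, but none was called without the second iGPA Dox replicate or with only the compared groups in the fit. Pax8, a paired-box factor of the early otic placode, had 40.4 and 81.7 normalised counts in iG+A Dox and at most 1.97 in the other 6 libraries (-5.09, SE 1.25, limma adjusted p = 0.0246), a call lost without any 1 of 5 of the 8 libraries. Sox9, a factor of otic progenitors, had 139.9 and 83.3 in iGPA Dox and 321.4 and 237.0 in iG+A Dox (-2.11, SE 0.44, adjusted p = 0.00751), a call lost without the second replicate of iGPA Dox. The uncalled members lay on both sides of 0, from -3.78 for Dlx6 (adjusted p = 0.145) to 1.81 for Sox2 (adjusted p = 0.361). Of 22 mesenchyme genes, Pdgfra was lower, with 1640 and 1698 in iGPA Dox, 5464 and 2780 in iG+A Dox and 4461 to 6808 without Dox (-1.68, SE 0.38, adjusted p = 0.0155), a call lost without any 1 of 4 of the 8 libraries, and the list's median was -0.52. The summed level of the mesenchyme markers was 70684 to 83413 normalised counts in iGPA Dox, 147029 to 173370 in iG+A Dox and 285961 to 432197 without Dox, and its part in the other results was not tested. Of 16 cardiac and muscle genes, 1 was lower and none higher, with a median of -0.09. The lower one, the muscle factor Myod1, was induced to 43.6 and 76.9 in iG+A Dox and had 5.10 and 8.06 in iGPA Dox (-3.68, SE 0.80, adjusted p = 0.0108), a call lost without the first replicate of untreated iG+A, the second of untreated iGPA or the first of iGPA Dox. Among the uncalled members Myl7 had a value of 2.43 (adjusted p = 0.357) and Myf5 one of -1.84 (adjusted p = 0.327).

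Other gene groups gave no call with Pou4f3 added, and for them a missed threshold does not show equal levels. This was the case for all 23 Notch pathway genes (median -0.13), 4 Id genes (-0.18), 16 pluripotency genes (0.17), 15 endothelial genes (-0.06), 20 blood genes (0.38), 16 endoderm genes (-0.01), 17 epithelial genes (0.07) and 24 cell cycle genes (-0.09). Mki67, a marker of cycling cells, had 15761 and 19402 normalised counts in iGPA Dox and 19583 and 20550 in iG+A Dox (0.07, SE 0.18, limma adjusted p = 0.875). Of 7 CDK inhibitors, 1 was higher and none lower (median 0.33, with 1.60% of all genes higher). The higher one, Cdkn2b, had 290.4 and 320.7 in iGPA Dox and 141.4 and 179.4 in iG+A Dox (1.73, SE 0.37, adjusted p = 0.00961). This call was lost without the first replicate of untreated iG+A or the second of untreated iGPA. The 17 Merkel cell and neuroendocrine genes had a median of 1.04 and the 19 genes of the dissociation stress response one of 0.86, also without a call. The summed stress genes were at 85583 and 131333 in iGPA Dox, 60043 and 60416 in iG+A Dox and 122609 to 148089 without Dox, so they were higher in sorted iGPA than in sorted iG+A cells, and their part in the results was not tested. The embryonic globin gene Hbb-bh1 was at 8177 and 14183 in iGPA Dox and 23751 and 26945 in iG+A Dox, below the untreated range of 179528 to 315910 in both lines.

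**Figure D3:**
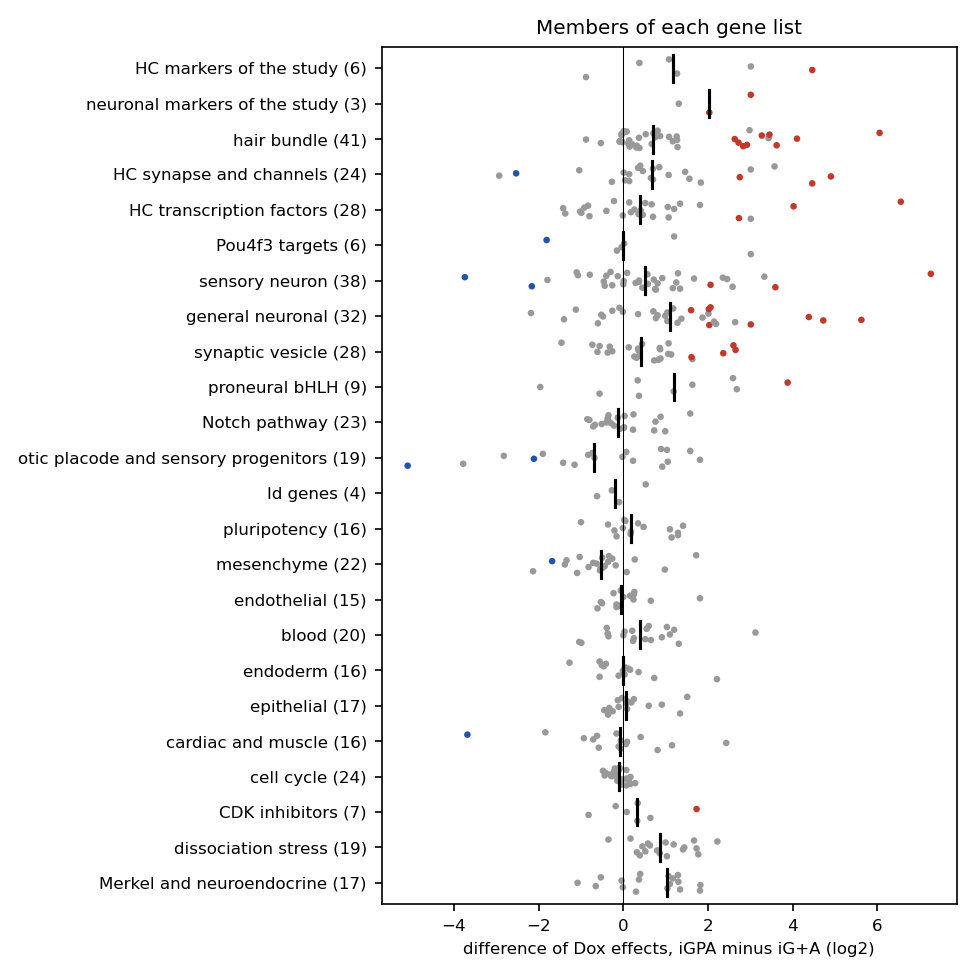
Difference of Dox effects, iGPA minus iG+A (x axis, log2), for each tested member of 24 gene lists, with the number tested after each name; red points are higher and blue points lower past the threshold, grey points are not called, and the black bar is the list's median. Red points stand in the hair bundle (9 of 41) and general neuronal (8 of 32) lists, and the otic placode list has 2 blue points and none in red.

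When only sorted cells were compared, 367 genes were higher and 305 lower in iGPA Dox than in iG+A Dox (2.18% and 1.81% of genes tested), and the count of lower genes was 201 without the first replicate of iGPA Dox. Between the untreated lines 3 genes were higher and 2 lower in iGPA (0.0178% and 0.0119%), although 2462 genes had an unadjusted p under 0.05. Of the 270 genes higher with Pou4f3 added, 219 were also called among the Dox libraries, and in 267 the iGPA Dox libraries lay wholly above those of iG+A Dox. Of the 101 lower genes, 74 were called among the Dox libraries and in all 101 the iGPA Dox libraries lay wholly below. Over all genes tested, 24.6% had such libraries wholly above and 26.3% wholly below, and the 270 and 101 genes were chosen on values that include these libraries. The median difference of the 270 genes was 2.23 among Dox libraries and -0.30 among untreated libraries, and that of the 101 genes -1.86 and 0.20.

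The 3 exceptions, named after their values were seen, were Angpt2, Zfp750 and Rex2. Angpt2, a vascular growth factor, had 118.3 and 118.7 normalised counts in untreated iG+A and is listed at 0 in the other 6 libraries, including both Dox groups. Zfp750, an epidermal factor, had 48.7 and 98.6 in untreated iG+A and is listed at 0 elsewhere. Rex2 is listed at 0 in both untreated iGPA libraries and had 93.9 to 206.5 in iG+A. In all, the difference between the untreated lines was larger in size than that between the Dox groups for 9 of the 270 higher genes and 1 of the 101 lower genes. For the 3 named genes the difference came from the untreated libraries, and no difference in the direction of the call was seen among Dox libraries. The 5 genes called between the untreated lines were Pou4f3, Angpt2, Rex2, B3glct and Eif2s3y. B3glct, a glycosyltransferase, had 13.9 to 26.6 normalised counts in all 4 iG+A libraries and 1212 to 2078 in all 4 iGPA libraries, with and without Dox, and Eif2s3y had 18.6 to 40.3 and 132.8 to 141.3. Neither was called for the addition of Pou4f3. Without the second replicate of untreated iG+A, 17 genes were higher and 22 lower in untreated iGPA, and without the first 6 and 3.

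**Figure D4:**
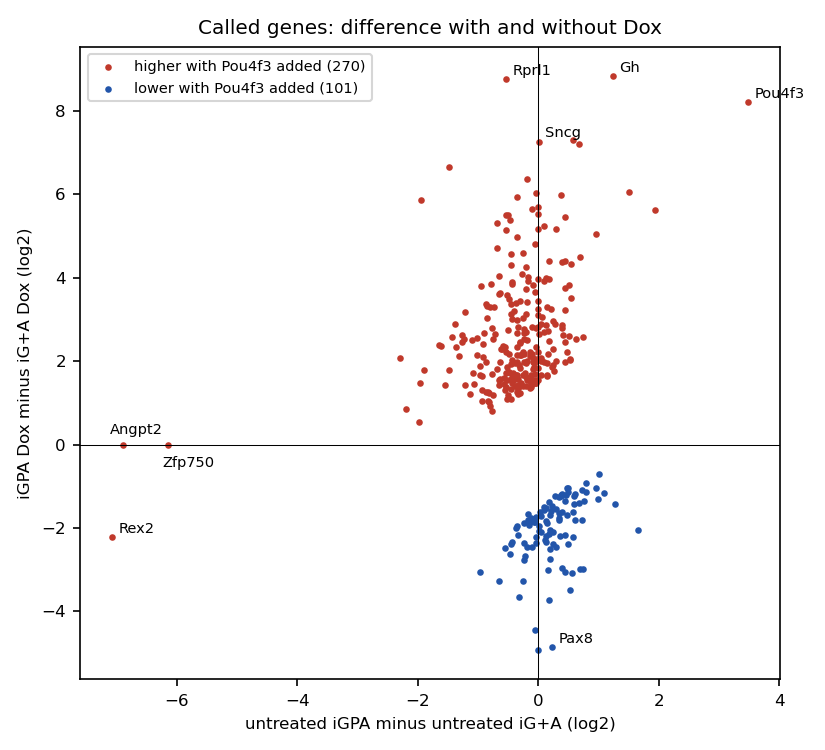
Difference between untreated iGPA and untreated iG+A (x axis, log2) and between iGPA Dox and iG+A Dox (y axis, log2) for the 371 genes past the threshold, 1 point per gene. Most red points (270, higher) lie above 0 and all blue points (101, lower) below 0 on the y axis with small differences between the untreated lines, while Angpt2, Zfp750 and Rex2 stand apart to the left.

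The series also holds lines in which Pou4f3 was added to Atoh1 alone (iP+A against iAtoh1), added to Gfi1 alone (iG+P against iGfi1) or induced by itself (iPou4f3), with the same 2 Dox groups and 2 replicates each. These libraries are separate from the 8 above. The value for Pou4f3 by itself is the plain Dox effect of the iPou4f3 line. Unlike the others it has no second line subtracted, so it also holds the effects of Dox and sorting. Pou4f3 added to Atoh1 gave 352 higher and 116 lower genes (2.09% and 0.689%), added to Gfi1 239 and 72 (1.42% and 0.428%), and by itself 248 and 102 (1.47% and 0.606%). Of the 270 genes higher with Pou4f3 added to Gfi1 and Atoh1, 132 were also higher when it was added to Atoh1, which is 48.9% of the 270 and 37.5% of the 352. With Gfi1 the overlap was 117 genes (43.3% of the 270 and 49.0% of the 239), and with Pou4f3 alone 75 (27.8% of the 270 and 30.2% of the 248). In all 3 settings 49 genes were higher, and 94 of the 270 were higher in none. Of the 101 lower genes, 12 were also lower on Atoh1 (11.9% of the 101 and 10.3% of the 116), 5 on Gfi1 (5.0% and 6.9% of the 72) and 0 with Pou4f3 alone, and 85 were lower in none. Over these lists the median difference of the 270 genes was 1.82 on Atoh1, 1.49 on Gfi1 and 0.83 alone, and that of the 101 genes -0.29, -0.59 and -0.07. That a call was missed elsewhere does not show that the effect differed, which was tested separately.

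A test of the difference itself compared the signed log2 differences made by Pou4f3, so a higher value need not be a larger effect. These values were higher on Gfi1 and Atoh1 than on Atoh1 for 30 genes and lower for 60 (0.178% and 0.356% of genes tested). Against Gfi1 these were 15 and 15 (0.0891% each). These counts moved by over 1.5 times without any 1 of 11 of the 16 libraries in the first comparison (7 and 8 without the first iP+A Dox replicate, 60 and 79 without the second untreated iG+A replicate). In the second they did so without any 1 of 7 of 16. With same-numbered replicates of a line as blocks the counts were 89 and 140 against Atoh1 and 30 and 38 against Gfi1. With the replicate number as a block across lines they were 21 and 48 against Atoh1 and 15 and 15 against Gfi1. Of the 270 higher genes 15 were higher and of the 101 lower genes 18 were lower than on Atoh1. Against Gfi1, 10 of the 270 were higher and 2 lower, and 4 of the 101 were lower. These genes, and the largest rises and falls, were chosen on the difference on Gfi1 and Atoh1. That value enters both tests, so the choice favoured these directions beforehand. Of the 12 largest rises, Ppp2r2c differed from the Atoh1 setting and Mmp24 from the Gfi1 setting, and no difference was called for the others with these 2 replicates. Sncg differed by 7.26 on Gfi1 and Atoh1, 7.56 on Atoh1, 8.39 on Gfi1 and 6.86 alone, and Gh by 7.61, 7.02, 7.50 and 6.37, all 4 called for each gene. Otof likewise differed by 4.46, 4.01, 5.94 and 4.90. All 3 genes were thus higher in each of the settings in which Pou4f3 was present.

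Mmp24 was called in the settings with Atoh1 and in neither of those without it. It was higher by 6.57 on Gfi1 and Atoh1 and 5.89 on Atoh1, and its differences were -1.03 on Gfi1 and -0.53 with Pou4f3 alone, neither called. The difference between the settings with Gfi1 and Atoh1 and with Gfi1 was 7.59 (limma adjusted p = 0.00133). Nefl, with 4.72, 2.46, -0.73 and 1.56, was called only with Gfi1 and Atoh1 (adjusted p = 0.0534 on Atoh1), and it differed from the Gfi1 setting by 5.45 (adjusted p = 0.0341). Ppp2r2c was higher by 6.01 on Gfi1 and Atoh1 and by 1.45 on Atoh1, which was not called, and the settings differed by 4.57 (adjusted p = 0.0443). Syt13, with 1.61 and -1.22, differed by 2.83 (adjusted p = 0.000592). When each of the 16 libraries was left out in turn, Mmp24 and Syt13 kept these calls, while Nefl lost its call without any 1 of 10 (adjusted p up to 0.0897) and Ppp2r2c without any 1 of 12 (adjusted p up to 0.104).

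Of the 12 largest falls, 4 differed from the setting with Atoh1 alone and 2 from that with Gfi1 alone. They were chosen on their difference on Gfi1 and Atoh1, which enters both tests, so the choice favoured values below 0. Dmrta2 differed by -2.87 on Gfi1 and Atoh1, -0.47 on Atoh1 and 0.66 on Gfi1, and the setting with both was lower than that with Atoh1 by -2.40 (limma adjusted p = 0.0372) and than that with Gfi1 by -3.53 (adjusted p = 0.00397). Shox2 differed from the Atoh1 setting by -3.99 (adjusted p = 0.0169), Aldh1a3 by -3.31 (adjusted p = 0.0497) and Hoxb8 by -2.86 (adjusted p = 0.0349). Their differences on Atoh1 were 0.25, -0.04 and 0.06. Hoxb8 was lower on Gfi1 too (-2.23). Pcdh20 was lower on Gfi1 and Atoh1 (-3.92) and on Atoh1 (-2.08) and higher on Gfi1 (2.12), and differed from the Gfi1 setting by -6.04 (adjusted p = 0.00146). Kcnmb2 was lower with both (-2.53) and higher on Atoh1 (2.08), and differed by -4.60 and -4.00 from the settings with Atoh1 and Gfi1 (adjusted p = 0.0125 and 0.0375). Without single libraries the differences from the Atoh1 setting kept their direction but were mostly near the threshold. Aldh1a3 lost its call without any 1 of 14 of the 16 libraries, Hoxb8 without any 1 of 11, Dmrta2 without any 1 of 9 and Shox2 without the first iP+A Dox replicate (adjusted p = 0.0563), and Kcnmb2 kept it. Against the Gfi1 setting Dmrta2 and Pcdh20 kept their calls, and Kcnmb2 lost it without any 1 of 12.

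**Figure D5:**
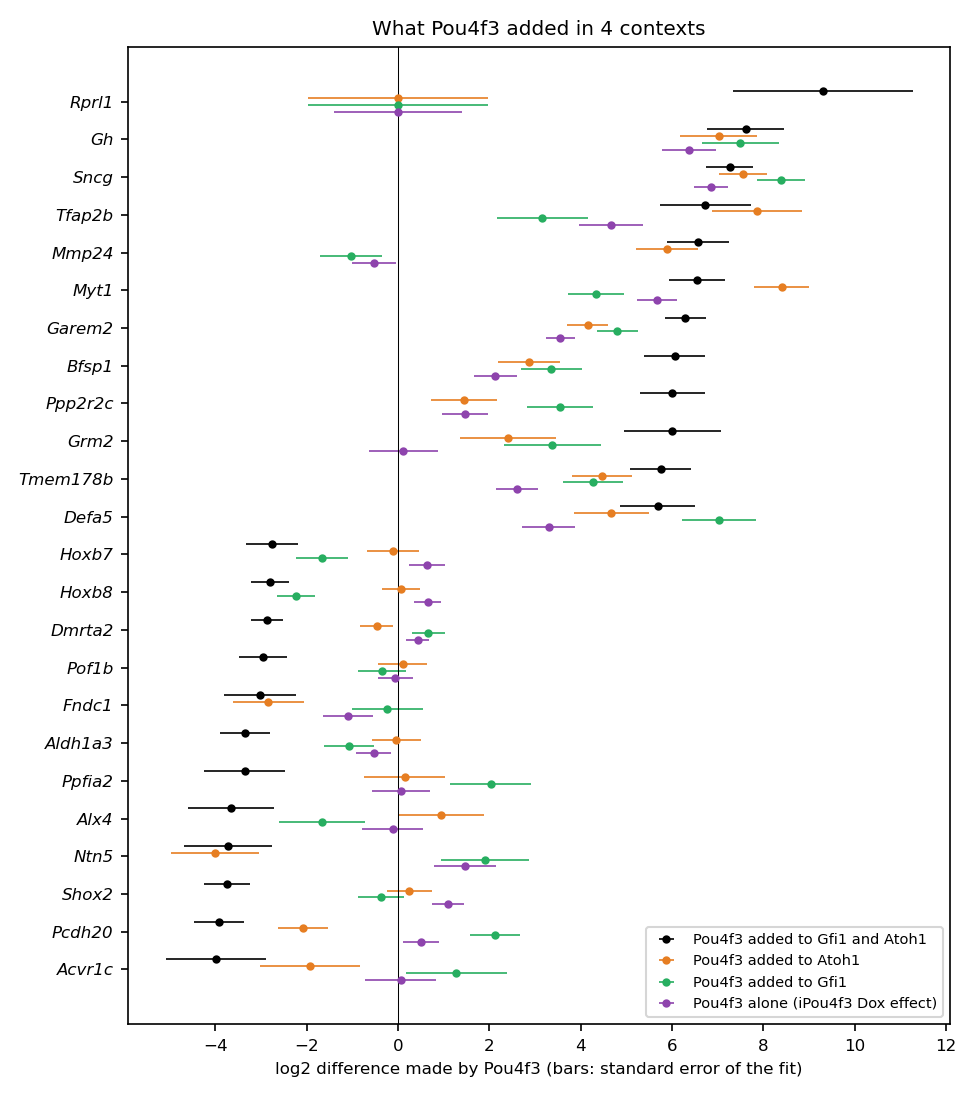
Log2 difference made by Pou4f3 (x axis, with bars for the standard error of the fit) for 24 genes. They are the 12 largest rises and 12 largest falls among genes that passed the filters, such as a mean of at least 100 normalised counts in a group. Pou4f3 was added to Gfi1 and Atoh1 (black), to Atoh1 (orange), to Gfi1 (green) or induced alone (purple, the Dox effect of iPou4f3). Gh and Sncg are far to the right in all 4 settings, Mmp24 only in those with Atoh1, and Dmrta2, Shox2 and Aldh1a3 lie between -1.07 and 1.09 except in black.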

How the data were processed

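KAPA mRNA HyperPrep libraries were made from total RNA of 28 samples. The authors trimmed reads with cutadapt, quantified mm9 transcripts with Kallisto, and normalised gene counts with DESeq2; versions are not given in the sources used here. The deposited values are log2 of the normalised count plus 1 for 19421 genes. Whole reads could not be recovered, since 71.9% to 79.4% of low values were within 0.05 of whole multiples of a library's step, so count tests were not run and the log2 values were fitted with limma 3.58.1 (R 4.3.3). All 28 libraries entered 1 fit of 14 groups, with a variance trend and 14 residual degrees of freedom, tested on simulated data. Depth was estimated from the steps, and the precision given is the spread between 2 clones. Members, lists and tests were chosen with earlier results of these data known.

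Named genes are the transgenes, the study's markers, the 12 largest called differences in each direction (a symbol, a mean of at least 100 normalised counts in a group, separate Dox libraries, no group with 1 library at 0 and the other above 50, no clustered protocadherins), up to 5 called members per list (else 2 by level), and the larger differences between settings. Gene positions are from GENCODE M1 on NCBIM37, which is mm9, and promoters from RefSeq on GRCm38.p6. The main fit did not pair libraries. Only in the block within lines were replicate numbers taken as pairs of Dox and No Dox. The series uses a clone per replicate, and the deviations of same-numbered libraries correlated by 0.103 to 0.246 in the 7 lines. However, it is not stated that equal numbers are the same clone. Alternatives were pseudocounts, filters, scalings, replicate blocks, only the groups compared, no trend, a log2 threshold of 1, and each library left out.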

Additional observations from a re-analysis of the deposited data

Results flagged for a closer look

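Effects of the same treatment that differed between lines by a test of the difference were the 270 higher and 101 lower genes for Pou4f3 added to Gfi1 and Atoh1. The same held for 30 higher and 60 lower genes when this was set against Pou4f3 added to Atoh1, and for 15 higher and 15 lower genes against Pou4f3 added to Gfi1. Among the largest rises and falls, Ppp2r2c (4.57), Shox2 (-3.99), Aldh1a3 (-3.31), Hoxb8 (-2.86) and Dmrta2 (-2.40) differed from the setting with Atoh1, as log2 differences. Mmp24 (7.59), Pcdh20 (-6.04) and Dmrta2 (-3.53) differed from the setting with Gfi1. All of these were chosen on the difference on Gfi1 and Atoh1, which enters both tests, so the choice favoured their directions. No group has more than 2 samples, so single libraries could not be tested as outliers.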

How the results depend on the processing

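Of the 56 named genes past the threshold, 26 kept the call under all 18 alternatives run on single genes, 30 lost it under at least 1 and none reversed, and 24 lost it without at least 1 library. With only the compared groups in the fit, the counts were 144 higher and 39 lower for Pou4f3 added to Gfi1 and Atoh1, 215 and 81 among Dox libraries, 1 and 0 among untreated libraries, 11 and 3 against Pou4f3 added to Atoh1, and 9 higher against Pou4f3 added to Gfi1. This fit has fewer samples to estimate the spread, and in it the study's neuronal markers, the Pou4f3 targets and the otic, mesenchyme, muscle and CDK inhibitor lists had no called member. The replicate block within lines gave 324 and 142 genes for the main comparison, 89 and 140 against Atoh1 and 30 and 38 against Gfi1, and the block across lines moved no count by over 1.5 times. A pseudocount of 5 gave 5 lower genes among untreated libraries, 52 higher against Atoh1, and 24 and 25 against Gfi1. Without a filter these were 4 lower and 19 higher against Atoh1. A log2 threshold of 1 gave 154 lower genes in the main comparison, 506 lower among Dox libraries and 6 higher among untreated ones. The cause of these moves was not tested. Leaving out each library in turn gave 200 to 285 higher and 63 to 118 lower genes in the main comparison, 276 to 356 and 201 to 283 among Dox libraries (201 without the first iGPA Dox replicate), and 2 to 17 and 3 to 22 among untreated libraries. Against Atoh1 the ranges were 7 to 60 and 8 to 79, lowest without the first iP+A Dox replicate, and against Gfi1 7 to 29 and 9 to 23, lowest without the second replicate of untreated iGfi1 or untreated iGPA. Scaling moved the median gene from -0.012 to at most -0.041. Depth limits genes with few counts, whose differences depend on the added 1.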

Other observations

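Of 21 genes of amino acid supply, listed after their values were seen and so given without a test of the list, 10 were lower with Pou4f3 added and none was higher. Over all genes tested, 0.600% were lower and 1.60% higher. All 21 members tested (enzymes of serine synthesis, amino acid transporters and genes known to respond to amino acid shortage) had a difference below 0, with a median of -1.52 against -0.012 over all genes, and those not called included Ddit3 (-0.14, limma adjusted p = 0.851), Atf4 (-0.22, adjusted p = 0.597) and Slc7a11 (-0.28, adjusted p = 0.635). Among Dox libraries 4 were lower in iGPA, beside 1.81% of all genes, with a median of -1.15. Between untreated iGPA and untreated iG+A, 18 of the 21 had a value above 0, with a median of 0.38 and no call. Part of the difference thus lay in the untreated libraries. Phgdh, the first enzyme of serine synthesis, had 618.6 and 446.2 normalised counts in iGPA Dox, 1488 and 1337 in iG+A Dox, 3138 and 2074 in untreated iGPA and 1651 and 1738 in untreated iG+A (-2.01, SE 0.29, limma adjusted p = 0.00031). Psat1, the next enzyme, had 5002 and 4103 in iGPA Dox and 9252 and 9480 in iG+A Dox (-1.52, SE 0.24, adjusted p = 0.000856), and Slc7a5, a transporter of large neutral amino acids, had 3330 and 2817 against 6405 and 7195 (-1.64, SE 0.35, adjusted p = 0.00887). The median of the list was 0.16 when Pou4f3 was added to Atoh1 and -0.41 when it was added to Gfi1, with no gene called in either. Under quantile normalisation and 75th percentile scaling all 21 members were still below 0, with medians of -1.55 and -1.53.

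Of 34 Hox genes tested, also listed after their values were seen, 6 were lower and none higher (Hoxb7, Hoxb8, Hoxc6, Hoxd4, Hoxd8 and Hoxd9). Over all genes tested, 0.600% were lower and 1.60% higher. The list's median was -1.15 against -0.012 over all genes, and it was -1.18 and -1.16 under the other scalings. Among Dox libraries 16 were lower in iGPA (median -1.62, with 1.81% of all genes lower), and between the untreated lines none was called (median -0.34). The median was -1.14 for Pou4f3 added to Atoh1, -1.68 added to Gfi1 and 0.14 alone. Hoxd9 had 114.3 and 105.8 normalised counts in iGPA Dox and 382.4 to 697.9 in the other 6 libraries (-2.32, SE 0.37, limma adjusted p = 0.000952).

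Pou4f1, the paralogue of Pou4f3 in sensory neurons, named after its values were seen, had 547.2 and 448.9 normalised counts in iGPA Dox, 221.2 and 323.4 in iG+A Dox and 2346 and 1751.5 in iP+A Dox. Its difference with Pou4f3 added to Gfi1 and Atoh1 was 0.77 (SE 0.71, limma adjusted p = 0.601), and the value was below that with Pou4f3 added to Atoh1 by a log2 difference of -5.39 (SE 1.01, adjusted p = 0.0199), a call lost without the second iAtoh1 Dox replicate, the first iP+A Dox replicate or the first untreated iGPA replicate (adjusted p up to 0.0613).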
